A study of Mus musculus with 20 samples.

Results

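Mouse dorsal root ganglion (DRG) neurons that had fired long bursts of action potentials for 5 hr were compared with neurons that had not been stimulated. The stimulated neurons received 90 action potentials every 5 min for 5 hr, a pattern called 90/5, delivered by biphasic pulses of 6 V and 0.2 ms. The comparison used 8 of the 20 samples of the series, 4 of 90/5 at 5 hr and 4 unstimulated, chosen by their titles. All were NIH Swiss mouse cultures made at embryonic day 13.5, kept for 3 to 4 weeks with nerve growth factor in compartmented chambers, so that axons crossed a barrier between the electrodes, and treated early with a fluorodeoxyuridine to hold back dividing non-neuronal cells. The methods name 5 pooled cultures per condition, without saying whether each sample was a pool of its own, and the unstimulated dishes carried electrodes that were not connected. Total RNA was read on 2-colour Agilent arrays, with 2 samples of the same condition on each array. Another group, stimulated with 18 action potentials every 1 min for 2 hr (18/1, 4 samples), served for the spread between samples and lay on the same slide as the unstimulated samples. Values are normalized log2 intensities, and a gene is called when its limma adjusted p was under 0.05.

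DRG neurons carry touch, pain and temperature from the body to the spinal cord, and they fire in culture when a pulse is applied to them. Action potentials open voltage-gated calcium channels, and calcium acts through kinases on factors such as CREB and SRF that already sit at the promoters of immediate early genes. Many of those genes encode transcription factors themselves, and their products switch on a later group that includes growth factors, neuropeptides and inhibitors of the signal.

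Of the 15 largest rises, 7 were genes known for their control by activity, Nr4a1 and Rgs2 first among them, and 8 were not on the activity lists. Of 15115 genes tested, 484 were called, which is 3.2%. Of these, 190 were higher after 90/5 stimulation (1.26% of genes tested) and 294 were lower (1.95%). At least 2-fold changes were found in 68 of the higher genes and 36 of the lower ones. An unadjusted p under 0.05 was reached by 2781 genes, or 18.4%. The groups did not overlap for 2011 genes (13.3%), 830 of them higher after 90/5 (5.49%) and 1181 lower (7.81%). The number and direction of the calls depended on the scaling and on single arrays. With values centred on medians only, 281 genes were higher and 48 lower. The median of all genes moved from -0.02 to 0.12, and 204 of the 484 genes were called again. There were 51 higher and 28 lower without the first unstimulated array, 33 and 13 without the second, and 888 and 1064 without the first 90/5 array. With all 20 samples in the fit there were 16 and 4, and with array means 63 and 47.

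**Figure D1:**
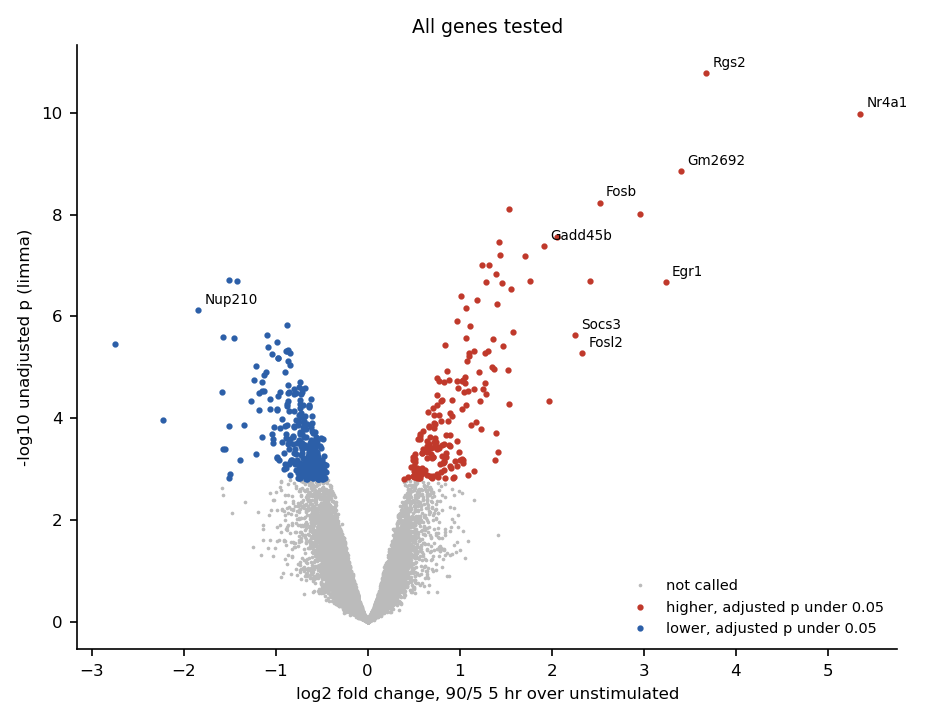
Log2 fold change (90/5 5 hr over unstimulated, x axis) against -log10 of the unadjusted limma p (y axis) for all 15115 genes tested, with the 190 called higher in red and the 294 called lower in blue. Nr4a1 and Rgs2 stand at the upper right, and the lower genes reach smaller changes than the higher ones.

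Slide and condition cannot be told apart in this comparison, because the 90/5 arrays lay on slide 3 and the unstimulated arrays on slide 1, and the slides were read by different versions of the scanner software. Median spot signal over background was 2.66 to 4.91 in the 90/5 samples and 2.27 to 2.59 in the unstimulated ones. Correlation between samples was 0.962 to 0.993 within 90/5, 0.987 to 0.994 within unstimulated and 0.964 to 0.99 across them. For some of the genes named below, the difference of the 18/1 2 hr samples from the same unstimulated samples is therefore given as well. Those arrays shared a slide. This difference is of another pattern and another time, and it shares the controls.

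The labels call the cells DRG neurons, but their growth protocol gives spinal cords as the tissue dissociated, so the cell type was checked against its markers. All 19 sensory neuron genes examined, from Prph, Nefl and Calca to Scn10a and P2rx3, were quantified, and limma called 0 of them (p was below 0.05 before adjustment for 1 of them, and 1 was called by the t-test of the methods, defined under the processing). Their summed linear level was 660000 to 715000 in unstimulated samples and 538000 to 985000 after 90/5. The brightest, Prph, Nefl and Calca, were saturated in 2 unstimulated samples and in 0 of the 90/5 samples. Slide 1 was read up to 65526 and slide 3 up to 113917 to 506707, so the unstimulated sums can be capped. Schwann cell and satellite glia genes were present too, with 7 of 12 tested, 0 called and summed levels of 78400 to 87800 and 75700 to 99800. Fibroblast genes had 8 of 9 tested and 0 called (14100 to 35000 and 17300 to 33600), and macrophage genes 7 of 9 tested and 0 called (14900 to 21300 and 12900 to 16700). Among 7 endothelial genes, 3 were tested and Kdr rose by 0.83 (SE 0.17), the summed level went from 2160 to 3010 up to 3200 to 4900, and Tek and Tie1 were not above background in any sample. None of the 7 spinal cord neuron genes passed the filter, and Gad1 and Gad2 were not above background. Dividing cell genes summed to 834 to 876 and 793 to 876, and astrocyte genes to 558 to 721 and 652 to 762. In RNA from whole cultures, fewer cells of a type and less RNA per cell cannot be told apart.

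The immediate early transcription factors moved most. Of 24 tested, 12 rose and 0 fell, beside 1.26% and 1.95% of all genes. Their median log2 fold change was 0.65 against -0.02 for all genes. Without the first unstimulated array 7 of them were called higher, without the second 3, and with all 20 samples in the fit 4. Nr4a1 (Nur77), an orphan nuclear receptor that calcium signals induce within minutes, had the largest rise of the genes tested. Its level was 7.58, 8.07, 7.63 and 8.42 in the unstimulated samples and 12.64, 13.33, 13.65 and 13.46 after 90/5. No sample of either group came near the other, and the difference was 5.35 (SE 0.27, 40.7-fold, adjusted p = 7.88e-07). The 18/1 2 hr samples lay 4.48 above the controls.

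Egr1, a zinc-finger factor of the same class, was at 7.42, 8.15, 7.57 and 8.23 without stimulation and at 10.53, 10.83, 11.47 and 11.52 with it, a rise of 3.24 (SE 0.31). The groups were again well apart. Fosb, which pairs with Jun proteins to form AP-1, went from 7.52, 7.84, 7.26 and 7.81 to 10, 10.01, 10.47 and 10.04, a rise of 2.52 (SE 0.18). Fosl2, another Fos-family member, went from 9.68, 9.21, 9.11 and 8.93 to 11.23, 11.25, 12.64 and 11.11, a rise of 2.33 (SE 0.3) in which replicate 3 stood above the other 90/5 samples.

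Smaller rises were found for Nab2, a corepressor of the Egr factors (1.54, SE 0.25), Ier3 (1.37, SE 0.19), the antiproliferative gene Btg2 (1.31, SE 0.17), the bZIP repressor Nfil3 (1.29, SE 0.2) and Csrnp1 (1.23, SE 0.23). Maff, Fosl1 and Cebpb rose by 0.85, 0.75 and 0.72. Other genes of this class were not called. Jun (-0.43, adjusted p = 0.659) and Atf3 (-0.21, adjusted p = 0.778), both known for their induction by axon injury, were among them, as were Jund (0.02), Klf4 (-0.04) and Srf (0.32).

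Several of the best-known activity genes were too faint in unstimulated neurons to enter that test and were read in a second fit that kept genes measured in all 4 samples of 1 condition. A gene that enters through the condition in which it is high is partly selected for its difference, so these values are a description with no test. Npas4, a neuron-specific activity-dependent factor, was at 6.62, 7.23, 6.83 and 6.96 in unstimulated samples and at 11.76, 12.84, 13.67 and 12.59 after 90/5, 5.8 higher. Fos was at 6.72, 6.8, 6.64 and 6.74 and then at 11.19, 11.45, 10.85 and 11.33, 4.48 higher. Both started from a level close to background, and the 90/5 samples spread more for Npas4 than for Fos.

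Nr4a2 (Nurr1) read 6.58, 6.69, 6.66 and 6.6 in the controls and 9.48, 9.25, 11.7 and 9.7 after 90/5, 3.41 higher. Replicate 3 was again the high sample. Egr4 read 7.32, 6.95, 6.53 and 6.55 in the controls and 10.22, 10.34, 10.47 and 9.62 after 90/5, 3.32 higher. Junb was 1.14 higher, Ier2 0.25 and Klf2 0.04. Of the 35 genes of this class on the array, 11 did not enter the first test, and 7 of those were measured in 1 condition.

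**Figure D2:**
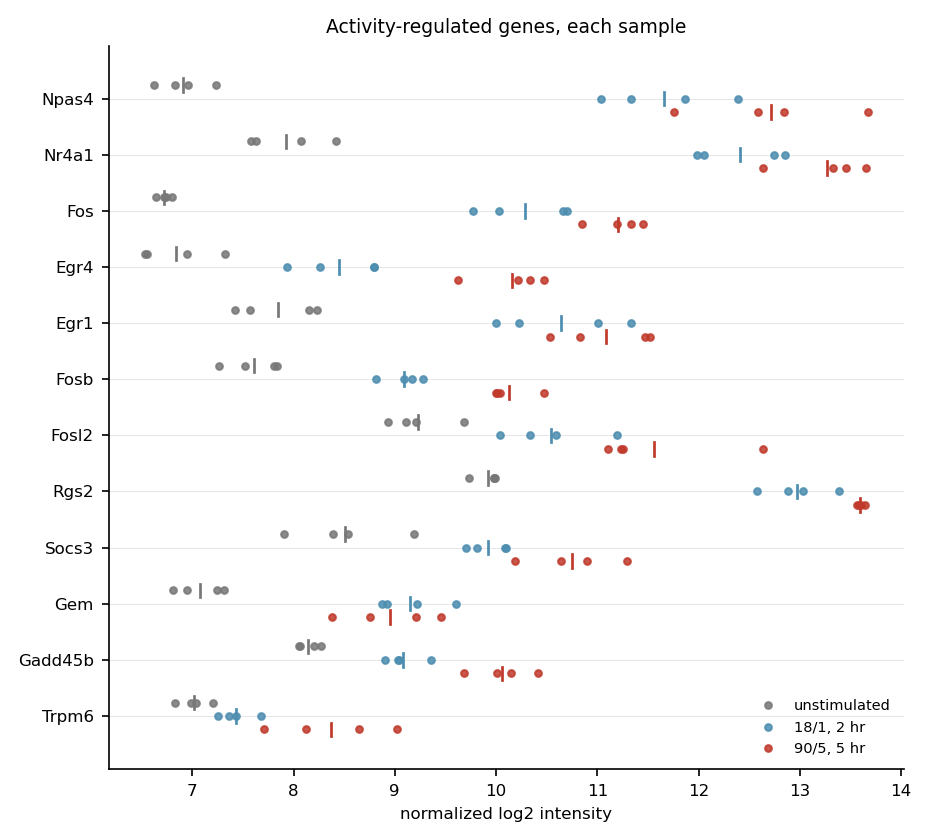
Normalized log2 intensity (x axis) of 12 activity-regulated genes in each of the 4 unstimulated (grey), 18/1 2 hr (blue) and 90/5 5 hr (red) samples, with ticks at group means. Every 90/5 sample lies above every unstimulated sample for all 12 genes, and Npas4 and Nr4a1 reach the highest levels relative to control. The genes are examples chosen with earlier results known, and the largest rises were named only where the groups did not overlap. This separation is therefore partly fixed by the choice. Listed genes that did not rise, such as Jun and Atf3, are not shown. Among all genes tested, the groups did not overlap for 13.3%.

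Of 30 activity-regulated effectors and feedback regulators tested, 9 rose and 0 fell, beside 1.26% and 1.95% of all genes, with a median of 0.28. Without the second unstimulated array or with all 20 samples in the fit, 3 of this list were called higher. Rgs2, which shortens G-protein signals by speeding GTP hydrolysis, varied little between samples. It was at 9.73, 9.99, 9.98 and 9.98 without stimulation and at 13.56, 13.6, 13.58 and 13.64 with it, a rise of 3.68 (SE 0.16, 12.8-fold, adjusted p = 2.49e-07). The difference was 3.05 in the 18/1 2 hr samples.

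Socs3, an inhibitor of JAK-STAT cytokine signalling, went from 7.91, 8.39, 8.54 and 9.19 to 10.19, 10.64, 11.29 and 10.9, a rise of 2.25 (SE 0.27). Gadd45b, a stress and DNA demethylation factor, went from 8.05, 8.2, 8.06 and 8.27 to 10.41, 10.15, 10.01 and 9.68, a rise of 1.92 (SE 0.16). The groups did not overlap for either gene. Arc, a cytoskeletal protein of synaptic plasticity, rose by 1.38 (SE 0.31), and its call was lost in 14 of 31 alternatives. The phosphatase Dusp14 rose by 1.25 (SE 0.19), Tiparp by 1.28 (SE 0.19) and Cish, a relative of Socs3, by 1.09 (SE 0.26).

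Bdnf, the neurotrophin most studied for its control by activity, was at 10.26, 10.3, 9.97 and 10.33 in unstimulated samples and at 11.61, 11.96, 11.03 and 11.69 after 90/5. It rose by 1.36 (SE 0.17, adjusted p = 0.00116), and the 18/1 2 hr difference was 0.89. Gem, a small GTPase that limits calcium channels, and Trpm6, a magnesium-permeable channel, entered only the second fit. There Gem was 1.87 higher and Trpm6 1.36 higher, Rrad 1.19, Ptgs2 0.86, Dusp4 0.68, Pim1 0.39, Rasd1 0.21 and Spry2 0.09, again as a description. The ERK phosphatase genes Dusp1 (0.09, adjusted p = 0.9) and Dusp6 (-0.05, adjusted p = 0.961) were not called after 90/5. Their 18/1 2 hr differences were 0.81 and 1.18, and the difference between the patterns was not tested.

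The promoters of 6 genes are shown as examples picked, after the search, for holding at least 2 copies of the core of a cyclic AMP response element (CRE), the site that CREB binds. Other named genes that held at least 2, such as Egr4, Nfkbid and the lower gene Hdac4, are not shown, and Fosl2, Socs3 and Gadd45b held 0. They are RefSeq promoters on GRCm38.p6, from 250 bases before to 50 after the start, 5' to 3' on the gene's strand, and capitals mark the CRE core TGACG or its reverse complement. The positions are chr15:101266596-101266895 for Nr4a1, chr2:57123954-57124253 (minus) for Nr4a2, chr1:144004100-144004399 (minus) for Rgs2, chr12:85473640-85473939 for Fos, chr19:4989922-4990221 (minus) for Npas4 and chr13:75089607-75089906 for Pcsk1.
Nr4a1: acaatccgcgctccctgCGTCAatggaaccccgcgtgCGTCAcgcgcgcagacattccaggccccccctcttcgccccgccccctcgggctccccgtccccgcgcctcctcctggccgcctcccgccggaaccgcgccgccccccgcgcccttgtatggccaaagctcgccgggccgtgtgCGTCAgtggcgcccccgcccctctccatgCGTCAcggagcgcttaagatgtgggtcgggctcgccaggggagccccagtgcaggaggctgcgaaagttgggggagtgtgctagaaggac
Nr4a2: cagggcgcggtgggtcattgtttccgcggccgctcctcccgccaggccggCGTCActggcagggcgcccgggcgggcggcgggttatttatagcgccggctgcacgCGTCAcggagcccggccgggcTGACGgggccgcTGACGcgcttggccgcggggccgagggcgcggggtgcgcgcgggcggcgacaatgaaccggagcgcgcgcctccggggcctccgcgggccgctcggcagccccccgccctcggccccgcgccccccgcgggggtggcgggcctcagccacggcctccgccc
Rgs2: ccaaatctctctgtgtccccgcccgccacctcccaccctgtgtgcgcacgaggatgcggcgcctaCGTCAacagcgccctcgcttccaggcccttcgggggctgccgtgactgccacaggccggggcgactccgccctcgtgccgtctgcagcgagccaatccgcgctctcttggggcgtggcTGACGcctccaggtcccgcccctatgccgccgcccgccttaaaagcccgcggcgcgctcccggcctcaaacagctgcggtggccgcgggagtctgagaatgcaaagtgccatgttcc
Fos: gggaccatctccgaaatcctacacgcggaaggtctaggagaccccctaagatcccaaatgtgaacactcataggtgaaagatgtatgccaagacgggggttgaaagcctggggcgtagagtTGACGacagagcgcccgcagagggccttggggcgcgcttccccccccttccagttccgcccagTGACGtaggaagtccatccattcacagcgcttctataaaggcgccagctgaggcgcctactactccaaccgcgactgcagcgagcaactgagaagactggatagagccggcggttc
Npas4: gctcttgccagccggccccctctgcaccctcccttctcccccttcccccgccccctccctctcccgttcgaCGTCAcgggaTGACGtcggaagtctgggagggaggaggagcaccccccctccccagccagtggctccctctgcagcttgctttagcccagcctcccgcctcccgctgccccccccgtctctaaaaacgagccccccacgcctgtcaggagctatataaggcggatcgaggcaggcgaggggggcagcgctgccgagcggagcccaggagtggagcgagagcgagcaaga
Pcsk1: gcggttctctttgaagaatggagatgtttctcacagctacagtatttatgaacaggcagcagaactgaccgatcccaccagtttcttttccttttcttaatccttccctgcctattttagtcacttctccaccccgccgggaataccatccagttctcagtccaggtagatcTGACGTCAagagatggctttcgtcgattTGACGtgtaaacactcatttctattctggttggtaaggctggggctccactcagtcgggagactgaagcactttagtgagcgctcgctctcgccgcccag

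Nr4a1 and Nr4a2 each held 4 CRE cores, Pcsk1 held 3, and Rgs2, Fos and Npas4 held 2. In Pcsk1 a pair of them overlapped as the full palindrome TGACGTCA. A core occurred in at least 1 promoter of 36.2% of the called higher genes that matched the table (46 of 127), of 32.5% of the called lower genes (51 of 157), of 34.9% of all genes tested and of 23% of genes in the table. The full CRE was found for 4.72%, 4.46% and 3.7% of called higher, called lower and tested genes. The kappa-B motif was found for 19.7% of called higher genes (25 of 127), 10.2% of called lower genes (16 of 157) and 12.5% of genes tested, the AP-1 motif (TGANTCA) for 7.09%, 6.37% and 6.19%, and the SRE, or CArG box, for 0%, 1.27% and 1.57%. All motifs were searched on both strands, the CRE contains the core, and a match is a run of letters and not a measured site. A gene with several promoters counted once if any of them held the motif.

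NF-kappaB is a family of dimeric factors held in the cytoplasm by I-kappa-B inhibitors, whose genes are among its targets. Of 16 genes of this pathway tested, 5 rose and 0 fell, beside 1.26% and 1.95% of all genes, with a median of 0.1. The list holds Bcor, Nfkbie and Pim1, which the study picked from these same arrays for their NF-kappaB sites. Bcor and Nfkbie are among the rises, so the count is partly selected. Its comparison with all genes is therefore no independent test. Nfkbid rose by 0.97 (SE 0.14), Nfkbie by 0.92 (SE 0.16) and Nfkbia by 0.8, and all 3 encode inhibitors of the I-kappa-B family. Relb, a subunit of the family, rose by 0.81 (SE 0.17), and Bcor, a BCL6 corepressor, by 0.99 (SE 0.21). Of 31 alternatives, 14 lost the call of Bcor, 11 that of Relb, 7 that of Nfkbie and 6 that of Nfkbid.

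Nfkbie was at 8.72, 8.96, 8.31 and 8.89 in the controls and at 9.49, 9.72, 9.89 and 9.48 after 90/5, and Bcor at 8.05, 8.11, 8.32 and 8.2 and then at 8.76, 9.27, 9.6 and 9.02. The groups did not overlap for either gene. The 18/1 2 hr differences were 0.39 for Nfkbie, 0.34 for Bcor, 0.71 for Nfkbid, 0.03 for Relb and 1.27 for Nfkbia. Rela (-0.28), Chuk (0.1) and Ikbkb (-0.33) were not called, and Pim1, a kinase gene read only in the second fit, was 0.39 higher. Nfkb2 read 7.36 and 7.84 on the first 90/5 array but 10.46 and 10.3 on the second, against 7.24 to 7.76 in controls. Without either unstimulated array 0 genes of this list were called, and with only the 8 samples in the fit 1 was.

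Of 18 neuropeptide and granin genes tested, 2 rose and 0 fell, beside 1.26% and 1.95% of all genes, with a median of 0.14. The peptide genes Tac1 (0.3), Calca (0.1) and Gal (-0.13) were not called. Adcyap1, which encodes the neuropeptide PACAP, rose by 1.16 (SE 0.27), from 11.78, 12.03, 12.78 and 12.32 to 13.05, 13.56, 13.64 and 13.3. Pcsk1, a convertase that cuts neuropeptide precursors, rose by 0.83 (SE 0.19). Among 18 neurotrophic factor and receptor genes tested, 2 rose and 1 fell, beside 1.26% and 1.95% of all genes. Bdnf and Artn (artemin, a ligand of the GDNF family, 0.84, SE 0.21) rose and the LIF receptor gene Lifr fell by 0.89 (SE 0.21). Its 18/1 2 hr difference was -0.76. The call was lost in 17 of 31 alternatives for Artn, 16 for Adcyap1, 15 for Lifr and 12 for Pcsk1.

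Channel genes showed a few rises among many tested. Beside the 1.26% of all genes called higher and 1.95% lower, 3 of 56 potassium and HCN channel genes rose and 0 fell: Kcna5 by 1.1 (SE 0.15), Kcns3 by 0.93 (SE 0.23) and Kcnh3 by 0.71 (SE 0.15). Kcna5 was at 7.63, 7.63, 7.62 and 7.8 without stimulation and 8.9, 8.64, 8.77 and 8.76 with it. Kcns3 was at 8.3, 7.7, 7.98 and 7.56 and then at 8.59, 8.28, 9.13 and 9.25, so that its groups overlapped. Its call was lost in 16 of 31 alternatives and that of Kcnh3 in 13, against 4 for Kcna5. Trpv4, a cation channel opened by warmth and osmotic stretch, rose by 0.86 (SE 0.12), the 1 call among 19 TRP and P2X genes. Cacna1h, the low-threshold T-type calcium channel Cav3.2, fell by 0.76 (SE 0.18), the 1 call among 24 sodium and calcium channel genes, lost in 16 of 31 alternatives. Of these 5 genes, Cacna1h had an 18/1 2 hr difference of -0.45, and the 4 others were within 0.24 of the controls there.

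Slc32a1, the vesicular GABA transporter, rose by 1.53 (SE 0.22) and Slc18a3, the vesicular acetylcholine transporter, by 0.64 (SE 0.13), among 4 rises and 3 falls in 179 solute carrier genes, shares near the 1.26% and 1.95% of all genes tested. Slc32a1 was at 7.15, 7.01, 7.16 and 7.28 in controls, at 8.25 and 8.17 on the first 90/5 array and at 9.17 and 9.13 on the second. Its 18/1 2 hr difference was 0.02, and, as given above, the GABA-synthesis genes Gad1 and Gad2 were not above background. Slc25a28 and Slc25a20, mitochondrial carriers, rose by 0.69 and 0.59. Slc7a6 fell by 0.86 (SE 0.11), Slc12a2, the NKCC1 chloride importer of sensory neurons, fell by 0.7 (SE 0.16), and Slc26a11 fell by 0.47. Of 31 alternatives, 16 lost the call of Slc26a11, 15 that of Slc12a2 and 3 that of Slc7a6. For Slc25a28 and for Slc25a20 it was lost in 12.

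Clock-output genes moved in both directions. Bhlhe40, a bHLH repressor of clock genes, rose by 1.09 (SE 0.17), and Tef, a PAR bZIP factor, fell by 0.65 (SE 0.14), from 12.59, 12.62, 12.27 and 12.39 to 11.75, 11.79, 12.1 and 11.65. They were the 2 calls among 11 genes, beside 1.26% of all genes called higher and 1.95% lower. Among 44 chromatin enzymes, Tet1, which oxidises 5-methylcytosine, rose by 1.04 (SE 0.15) and the class II deacetylase Hdac4 fell by 0.96 (SE 0.21), 1 call each way, beside 1.26% and 1.95% of all genes. Of 31 alternatives, 13 lost the call of Hdac4, 13 that of Tef and 5 that of Tet1. Hoxb6 rose by 1.07 (SE 0.18), the 1 call among 24 Hox genes. The 5 GATA factor and cofactor genes gave 0 calls by limma and by the methods' t-test, with Gata5 at -0.28 (adjusted p = 0.197), the 1 gene of them with an unadjusted p under 0.05.

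**Figure D3:**
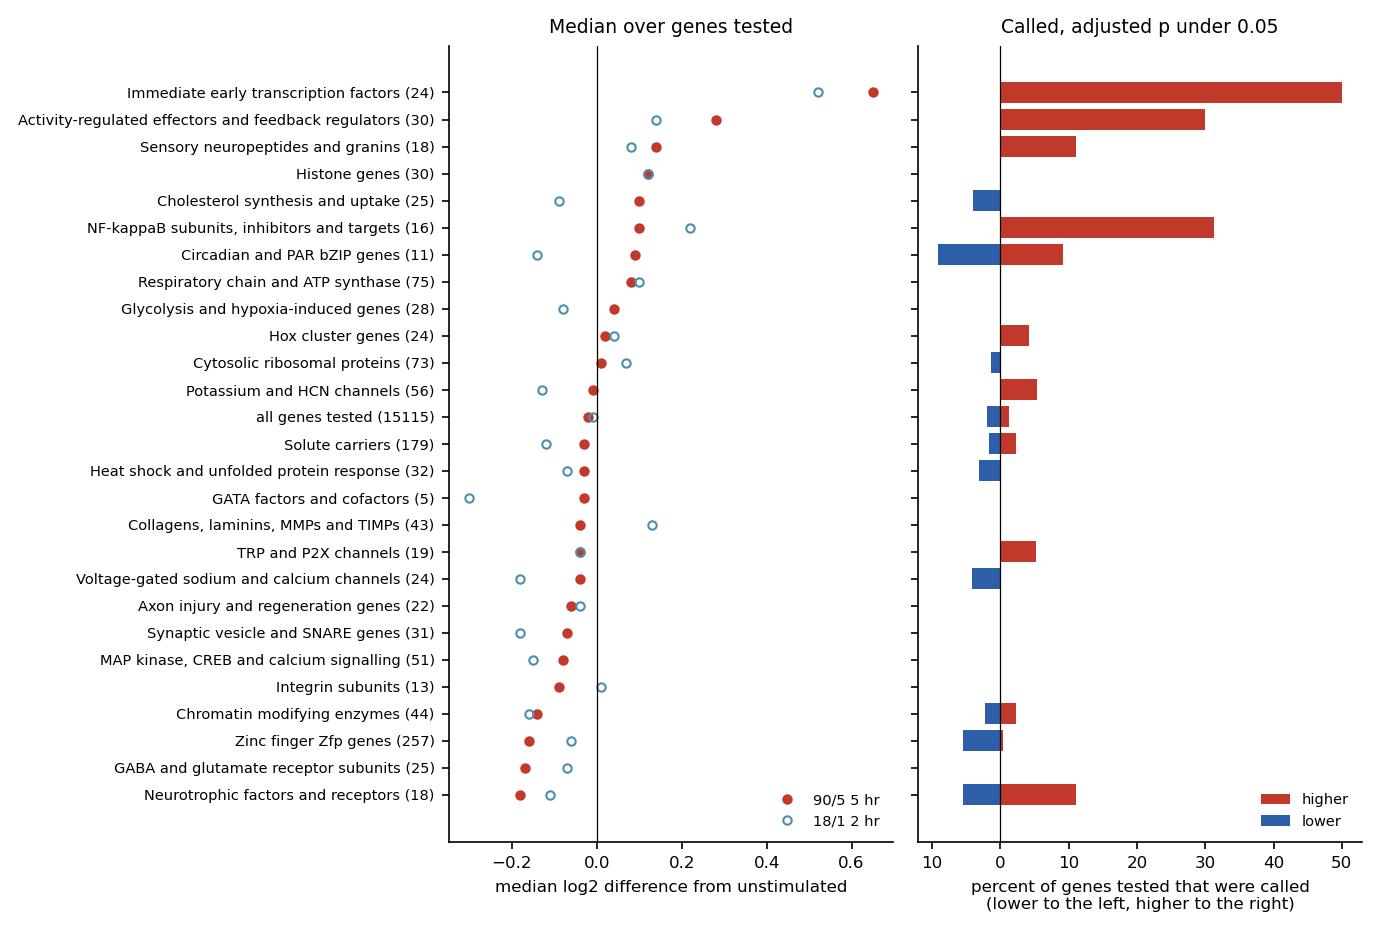
Median log2 difference from unstimulated samples for each gene group (left, 90/5 5 hr filled, 18/1 2 hr open) and the percentage of its tested genes called in each direction (right), with the number tested in brackets. Immediate early transcription factors lead on both measures with a median of 0.65 and 12 of 24 called, while most groups sit close to the -0.02 of all genes.

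Groups tied to growth, metabolism and synapses gave few calls. None of 22 axon injury genes, 51 MAP kinase, CREB and calcium signalling genes, 31 synaptic vesicle genes, 25 GABA and glutamate receptor genes, 43 collagen, laminin and protease genes, 13 integrins, 28 glycolysis genes, 75 respiratory chain genes or 30 histone genes was called by limma. Of their 318 tested genes together, 23 were higher and 23 lower with p below 0.05 before adjustment, beside 1141 and 1640 of all 15115 genes, while 1 was higher and 7 lower by the methods' t-test. The injury gene Sox11 was at -0.9 with an adjusted p of 0.0732. Single falls were found for Dnajb5 among 32 heat shock genes (-0.72), for the lipid regulator Srebf1 among 25 cholesterol genes (-0.78) and for Rps21 among 73 ribosomal protein genes (-0.7), beside 1.95% of all genes called lower. Their calls were lost in 13, 8 and 17 of 31 alternatives. Medians of these groups lay between -0.17 and 0.12. With median centring the respiratory and ribosomal medians became 0.3 and 0.3, with 2 and 6 called higher.

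Zinc-finger Zfp genes, most of which encode DNA-binding repressors, were the largest group and gave the most lower calls of the groups examined. Of 257 tested, 14 fell and 1 rose, beside 1.95% and 1.26% of all genes, and their median was -0.16. Zfp9 fell by 0.95 (SE 0.18), Zfp236 by 0.88 (SE 0.15), Zfp397 by 0.78 (SE 0.18) and Zfp791 by 0.75 (SE 0.15), and Zfp691 rose by 0.59 (SE 0.14). With median centring 1 gene was called lower and the median was -0.06, and 0 or 1 was called lower without 1 unstimulated array.

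Beside the activity genes, rises were seen in genes with little difference between the 18/1 2 hr samples and the controls. Those 2 groups shared a slide and the 90/5 samples lay on another, and the difference between 90/5 and 18/1 was not tested. Of the 68 genes that rose at least 2-fold, 32 had an 18/1 2 hr difference under 0.2 in size, and 18 had one at least 0.5 times their own rise. Naprt1, which makes NAD from nicotinic acid, was one of the 32. It was at 7.34, 7.54, 7.46 and 7.89 in controls and 9.57, 9.34, 9.94 and 9.59 after 90/5, a rise of 2.06 (SE 0.17), with an 18/1 2 hr difference of 0.03. Others were G630016D24Rik, now Tmem253 (1.58), and, picked after their values were seen, Pcp2 (1.56), Cep55 (1.46) and Ins2 (1.32), genes best known from Purkinje cells, dividing cells and pancreatic beta cells.

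Gm2692, LOC100502776 and ENSMUST00000073111 rose by 3.41 (SE 0.21), 2.96 (SE 0.22) and 2.42 (SE 0.23). They were predicted genes on chromosome 16 (mm9, probes at chr16:89183686-89183745, chr16:89278819-89278878 and chr16:89151489-89151548). Their probes matched each other at 53 to 55 of 60 bases, so they cannot be counted as 3 separate genes. Gm2692 was at 9.6, 10.03, 9.73 and 10.16 in controls and at 13.27, 13.09, 13.36 and 13.47 after 90/5, while its 18/1 2 hr difference was 0.26. ENSMUST00000105073, which the array annotates as a member of the keratin-associated protein 4 family, rose by 1.71 (SE 0.15). TC1636061 rose by 1.76 and Fam46a, now Tent5a, a poly(A) polymerase gene, by 1.97 (SE 0.32). Fam46a was 1.1 higher at 18/1 2 hr as well.

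**Figure D4:**
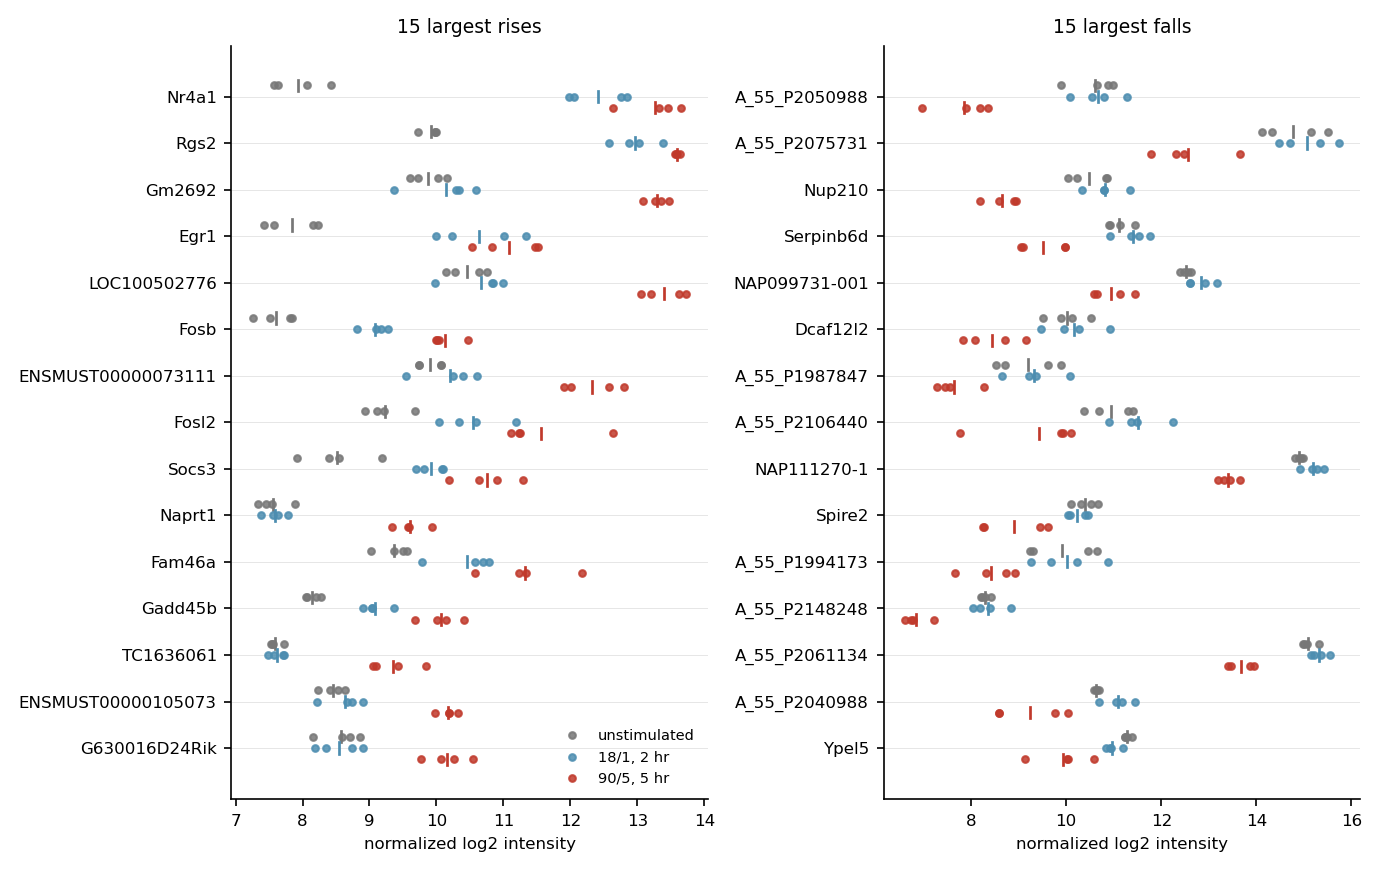
Normalized log2 intensity (x axes) in each unstimulated (grey), 18/1 2 hr (blue) and 90/5 5 hr (red) sample for the 15 largest rises (left) and the 15 largest falls (right), with ticks at group means. In the left panel the blue points of Nr4a1, Rgs2 and Egr1 lie near the red ones, while those of Gm2692 and Naprt1 lie with the grey, and in the right panel blue and grey lie together for most features.

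The largest falls were smaller and mostly in features without a gene symbol. Of the 15 largest, 10 had none, against 3 of the 15 largest rises, and over all calls the share without a symbol was 25.2% of lower and 10.5% of higher genes, beside 12.3% of all tested. A_55_P2050988 had the largest fall, from 10.64, 10.99, 9.9 and 10.89 to 7.9, 8.35, 8.19 and 6.97, or -2.75 (SE 0.35). NAP111270-1, at 14.81, 14.93, 14.99 and 14.89 and then 13.66, 13.31, 13.45 and 13.19, fell by 1.51 (SE 0.15).

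Among named genes, Nup210, a nuclear pore membrane protein, fell most, from 10.04, 10.86, 10.23 and 10.83 to 8.9, 8.94, 8.18 and 8.58, by 1.84 (SE 0.2, adjusted p = 0.000419). Its 18/1 2 hr difference was 0.33. Serpinb6d, a serine protease inhibitor, fell by 1.58 (SE 0.25), Dcaf12l2 by 1.57 (SE 0.33), Spire2, an actin nucleator, by 1.51 (SE 0.28) and Ypel5 by 1.34 (SE 0.25). Serpinb6d and Spire2 differed between the 90/5 arrays, with 9.97 and 9.98 on the first and 9.04 and 9.09 on the second for Serpinb6d, and 9.44 and 9.61 against 8.28 and 8.26 for Spire2. Pik3r1, the p85 subunit of phosphoinositide 3-kinase, was picked after its value was seen and fell by 1.21 (SE 0.17), with an 18/1 2 hr difference of -0.34.

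The base composition of the probes moved with the calls. Probe GC content correlated with the 90/5 log2 fold change across the 15115 genes with r = 0.199 and with the 18/1 2 hr difference with r = -0.0416, where the genes share the same arrays and are not independent. The median probe GC was 45% for called higher, 38.3% for called lower and 43.3% for all genes. Among probes with 35% GC or less, 0.665% were called higher and 3.03% lower, and among those with over 50 to 55%, 2.77% and 0.61%. With the trend removed, 402 genes were called, 151 higher and 251 lower, of which 373 were among the 484. Nr4a1, Rgs2 and Naprt1 had 45% GC probes, and Egr1, Bdnf and TC1636061 had 35% ones. Gm2692, G630016D24Rik, Kcna5, Slc32a1 and ENSMUST00000105073 rose with 18/1 2 hr differences of 0.26 or less. Their probes held 53.3%, 51.7%, 51.7%, 55% and 60% GC. Naprt1, Artn, TC1636061, Kcns3 and Kcnh3 also rose with such small differences, and their probes held 45%, 45%, 35%, 35% and 35% GC. These are examples, and a link between probe GC and the 18/1 2 hr difference among the rises was not tested.

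**Figure D5:**
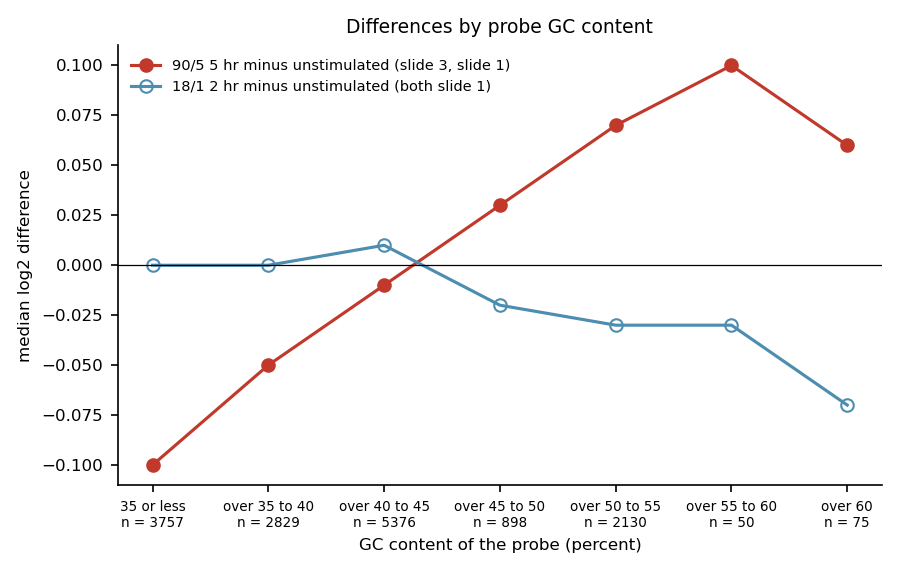
Median log2 difference from unstimulated samples (y axis) by GC content of the probe (x axis, percent, with the number of genes), for 90/5 5 hr on slide 3 (filled) and 18/1 2 hr on slide 1 (open). The 90/5 medians go from -0.1 in the lowest bin to 0.07 at over 50 to 55%, while the 18/1 medians stay between -0.07 and 0.01.

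Genes quantified in 1 condition only were counted as those at 2 times background or more in all 4 samples of it and in none of the other. By this rule, 667 genes were quantified only after 90/5 (2.21% of 30222 gene names) and 1 only in unstimulated samples (0.00331%), beside the higher signal over background of the 90/5 arrays given above. At 3 times background the numbers were 60 and 0, and by the scanner's own mark of a spot well above background they were 0.354% and 0.169% of gene names. Nr4a2 led the list, and C2cd4b, a nuclear factor gene, followed with 6.52, 6.62, 6.83 and 6.72 in controls and 8.99, 9.89, 11.14 and 9.61 after 90/5 and an 18/1 2 hr difference of 2.4. These 2 were 25.1 or more and 20.4 or more times background in every 90/5 sample.

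A gene not above background in controls has only a lower bound on its rise. Many of the genes with the largest bound on this list were higher on the second 90/5 array, and a high array helps a gene to rank there. Of the 60 with the largest bound, 39 were over 1 log2 unit higher on the second array than on the first and 4 the reverse, while of all 15115 genes tested 146 and 164 differed so. Foxe1, a forkhead factor gene, read 6.82 and 6.82 on the first array and 9.63 and 9.49 on the second, against 6.27 to 6.31 in controls, where it was not well above background. The group means lay at least 1.89 apart on the log2 scale, a description with no test, and 0.52 apart without the second 90/5 array. Pax6, an eye and forebrain factor gene, read 6.64 and 6.88, then 8.46 and 8.2, with controls of 6.13 to 6.2 that were not well above background either. Its means lay at least 1.39 apart, and 0.6 apart without that array. Their 18/1 2 hr differences were -0.06 and -0.06.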

How the data were processed

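Total RNA was hybridised to 4 x 44k Agilent mouse arrays, with 2 samples of one condition on each array in Cy3 and Cy5. The deposited files hold the scanner's mean spot and median background intensity of each colour, as the authors obtained them with Agilent Feature Extraction (10.7.1.1 on slide 1, 10.7.3.1 on slides 2 and 3), not normalized. Here the background was corrected with normexp (offset 50), each array was normalized by loess and arrays were scaled by A-quantiles, and log2 values of each channel were fitted with limma 3.58.1 in R 4.3.3, with colour as a term, array as a random block (correlation 0.0926), eBayes and Benjamini-Hochberg adjustment. The fit held the 12 samples of slides 1 and 3. The 8 samples of slide 2, which holds neither condition, were left out, since earlier results showed many spots marked non-uniform there and repeat spots of 1 probe differed more (median SD 0.26 to 0.68 log2 units, against 0.19 to 0.32 elsewhere). The labels do not settle which sample a channel of slide 2 holds, so these samples enter an alternative only as members of their group. Their spot marks were not used there, a choice made after the counts were seen. Of each array, 95 to 101 other columns were not used.

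A spot was used where it was uniform and at least 2 times background in all 8 samples compared, the brightest probe stood for a gene, and 83.6% of names tested matched the GRCm38.p6 gene table. Probe positions are those of the files (mm9). The files give no count behind a spot, so the number of arrays limits the precision. The methods' t-test was a heteroscedastic t-test on linear values with p under 0.05 and a fold of 1.4 or more. The methods also set a fold limit from each transcript's variability and correct p over spots of a transcript, which was not done here, so its counts are not those of the full criterion. The study calls the 4 samples of a condition biological replicates, but the sources used here do not give the pool or litter of each, so p-values measure the spread between these samples.

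Named genes were the 15 largest rises and falls among called genes without overlap, up to 4 called members per list and direction or else the member of smallest p, the 10 of largest bound quantified in 1 condition, and genes the study names. The members, lists and rules were chosen with earlier results of these data known, and the integrin and respiratory chain lists were rid of unrelated matches after values were seen. One gene group is not reported here. Alternatives were other scalings, filters, samples and models, and leaving out each sample or array.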

Additional observations from a re-analysis of the deposited data

Results flagged for a closer look

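Dixon's test was applied to each named gene in both groups of 4 samples, 204 sets of values, and 11 had 1 sample far from the other 3. Chance alone marks about 1 in 20 such sets. All 5 of the 90/5 cases were replicate 3, the sample with the lowest signal over background of its group. There Fosl2 was at 12.64 against 11.11 to 11.25 in the others, Fosb at 10.47 against 10 to 10.04 and Kcnh3 at 8.73 against 8.12 to 8.13, while A_55_P2106440 was at 7.77 against 9.9 to 10.11 and Zfp397 at 7.81 against 8.48 to 8.55.

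In the unstimulated group, replicate 1 was low for Rgs2 (9.73 against 9.98 to 9.99) and Hist1h4k (11.74 against 12.38 to 12.4) and high for Adm (9.07 against 8.57 to 8.63). Replicate 2 was high for TC1636061 (7.72 against 7.53 to 7.56) and low for Slc25a28 (10.74 against 10.83 to 10.84), and replicate 4 was high for Kcna5 (7.8 against 7.62 to 7.63).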

How the results depend on the processing

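The count of called genes (484, with 190 higher and 294 lower) moved with the model, the filter and the arrays included. It was 110 (63 higher, 47 lower) with array means as samples, 20 (16 and 4) with all 20 samples in the fit, 18 (14 and 4) with the filter also over all 20 samples, an alternative chosen after seeing the data, 181 (88 and 93) with only the 8 samples, and 4293 (1837 and 2456) with array weights. It was 446 (169 and 277) with the filter over all 20 samples, where slide 2 was filtered on background alone, a choice made after the counts were seen, and applying the scanner's non-uniform marks there too lowered this count and the 18 by over 1.5 times. It was 728 with no filter (351 higher) and 657 with the filter met in 1 condition (303 higher). The t-test of the methods called 878 (594 lower) and, after Benjamini-Hochberg adjustment, 42 (14 and 28). Centring on medians gave 281 higher and 48 lower. Leaving out 1 sample gave 72 to 1530 calls (50 to 640 higher, 22 to 890 lower), lowest without 90/5 replicate 4 and highest without 90/5 replicate 1. The count was 79 (51 and 28) without the first unstimulated array, 46 (33 and 13) without the second, 1952 (888 and 1064) without the first 90/5 array, and 474 without the second. The remaining settings gave 402 to 664 calls. The causes were not tested.

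Same-numbered samples were not treated as paired. The methods take controls from the same dissection and day as stimulated cultures, but the labels do not say which samples belong together. Correlations of the deviations of same-numbered samples were 0.487, 0.069, 0.0673 and -0.0557, which do not settle a pairing. With the replicate block 554 genes were called, 205 higher and 349 lower. Of 79 named genes called, 22 kept the call with all 20 samples in the fit and 78 with the replicate block. The 79 include genes called only in the second fit, such as Npas4 and Fos, for which a call is no test. The call was kept by 70 with the GC trend removed and 56 with median centring. Without the first unstimulated array 31 kept it, without the second 27 and without 90/5 replicate 4 34. With only the 8 samples 42 kept it, with array means 43, and with the methods' t-test after Benjamini-Hochberg adjustment 6. Rgs2, NAP099731-001 and NAP111270-1 kept it in all 31 alternatives. Nr4a1, Egr1, Socs3 and Gadd45b lost it in 1 of 31 and Bdnf in 4. Only 6430553K19Rik changed sign, from 1.37 to -0.11 without the second 90/5 array. Genes quantified only after 90/5 made up 2.21% of gene names, 0.199% at 3 times background and 0.354% by the scanner's mark, and those only in unstimulated samples 0.00331%, 0% and 0.169%.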
